A study of Mus musculus with 4 samples.

Results

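Amino acids enter and leave brown adipose tissue (BAT) cells, and the lysosomes within them, through carriers of the solute carrier (Slc) families. A set of 35 genes of the families Slc1, Slc3, Slc6, Slc7, Slc16, Slc36, Slc38 and Slc43 was examined among 20145 named genes on the array. The genes were listed by name and not by a cutoff on their values, but with earlier results of these data known. The arrays carried 48 probes for these genes. The tissue was BAT of male Tg mice at 8 weeks of age, taken 12 h after an intraperitoneal injection of vehicle, an aqueous mix of ethanol, PEG-400 and Tween-20, or of AP (AP20187). All mice carried maP2::Fv2E-PERK, a fusion of the eIF2α kinase domain of PERK with a dimerization domain, under the control of the aP2 (Fabp4) promoter, which is active in adipocytes and also in monocytes and macrophages. AP joins the fusion proteins and switches on the integrated stress response (ISR). The dose of AP is 1 ng/g in the sample labels and 0.05 mg/kg in the study's legend for these arrays. There were 2 vehicle-treated and 2 AP-treated mice, each on its own one-color array, and no AP-treated mouse without the transgene was analysed here.

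In the ISR, phosphorylated eIF2α lowers general protein synthesis while the transcription factor ATF4 is made in larger amounts. ATF4 is known to raise genes for amino acid supply, among them carriers such as Slc7a11, Slc7a5, Slc3a2, Slc6a9 and Slc7a1. Some of the Slc7 carriers are light chains that reach the cell surface only when joined to the heavy chain that Slc3a2 encodes, and a few carriers of the Slc36 and Slc38 families act at the lysosome, where amino acid supply is signalled to mTORC1.

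Signals are given as log2 over the 75th percentile of the same array, so 0 is the level below which 75% of probes lie, and a difference of 1 is 2-fold. Signals of different probes have no common scale, so levels were compared only between mice, not between genes. Per array, 46.4 to 49.0% of spots were well above background, and 0 spots were saturated. The 4 arrays were on 1 slide, where the position and the treatment cannot be told apart. All 12 BAT markers, Ucp1 among them, were well above background in all 4 mice. All 15 skeletal muscle markers were also well above background in a whole treatment group, so detection alone does not identify the tissue, which is BAT by its label.

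Of the 35 transporters, 24 were measured well above background in a whole treatment group, and these 24 were above it on all 4 arrays. In AP-treated Tg mice, 6 transporters were higher at an unadjusted limma p under 0.05, and only Slc7a4 was lower. In order of log2 fold change, the 6 were the glycine carrier Slc6a9, the neutral amino acid carriers Slc7a8 and Slc43a1, the heavy chain Slc3a2, the serine and alanine carrier Slc1a4 and the glutamate carrier Slc1a3. Over all 12790 named genes compared, 3.78% were higher and 2.26% were lower by this measure. The balance of directions moved with the scaling. Over all probes, 823 were higher and 692 lower, against 1021 and 440 when each array was scaled to its median and 448 and 1379 with the authors' log2 values, by which 4 transporters were higher and 2 lower. No transporter passed the threshold after adjustment over all 24970 probes (limma, Benjamini-Hochberg), where 0.0% of named genes passed and the lowest adjusted p was 0.80, and by the methods' t-test 2 of the 24 had an unadjusted p under 0.05, Slc36a1 and Slc38a7, with 5.8% of named genes under it. The differences below are therefore described and not called. For any one gene, the smallest p that an exact two-sided permutation test allows with 2 mice per group is 0.33.

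Counted by mouse, 8 of the 24 transporters were higher in each AP-treated mouse than in any vehicle-treated mouse, 2 were lower, and 14 overlapped between the groups. The same held for 20.1% and 17.3% of all named genes. At least 2-fold higher means were found for 6 transporters and at least 2-fold lower means for 2, against 2.74% and 1.95% of named genes. The log2 fold change was above 0 for 15 of the 24, against 51.4% of named genes, and below 0 for 9. Its median was 0.17, beside 0.01 over all named genes and -0.01 over all probes. The median distance between the 2 vehicle-treated mice was 0.43 and that between the 2 AP-treated mice was 0.68, both above the median size of the log2 fold change, which was 0.38. These are unlike measures, since single mice vary more than means of 2 mice, between which the fold change is taken.

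**Figure D1:**
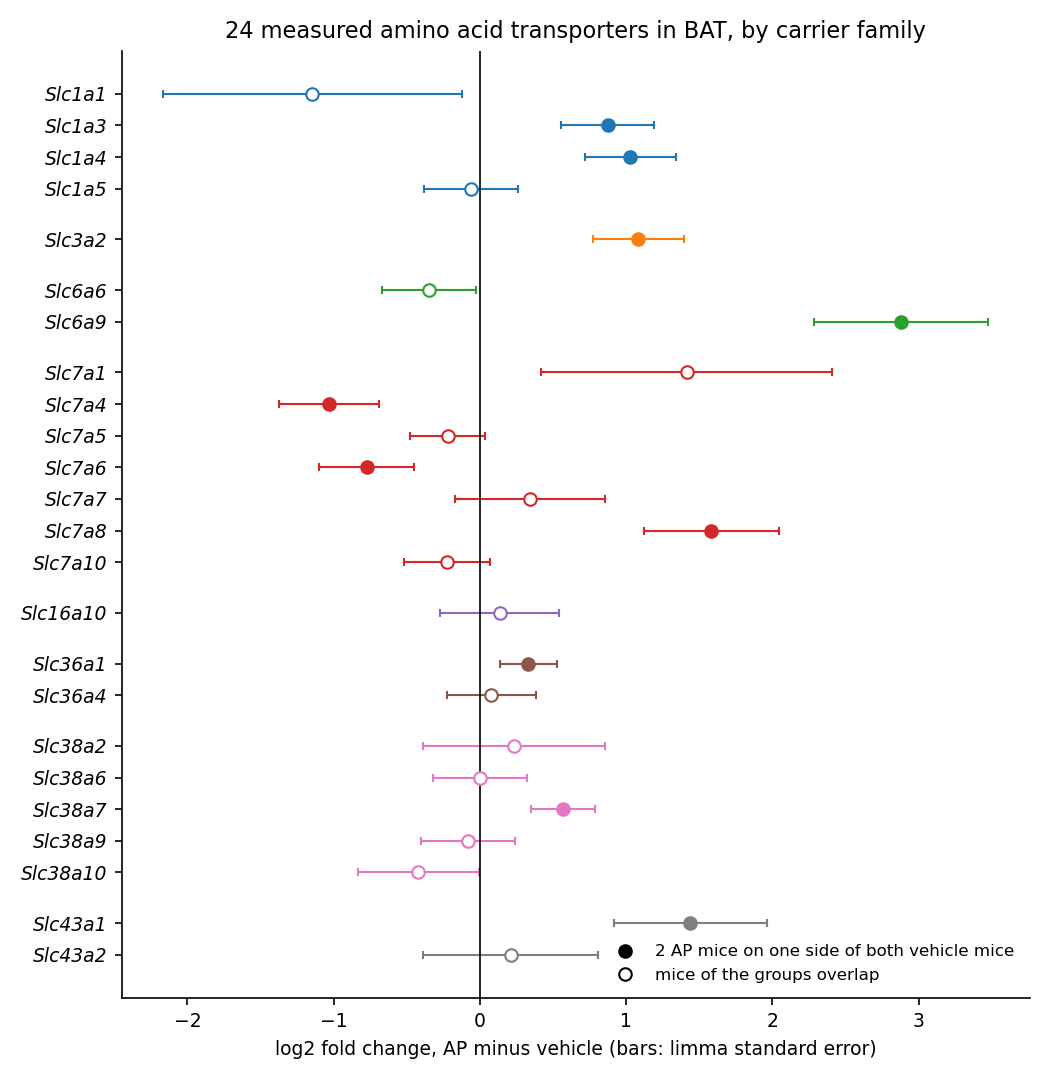
The log2 fold change (AP minus vehicle, x axis) of the 24 measured transporters, grouped and colored by carrier family, with the limma standard error as bars. Filled points mark the 10 genes whose groups did not overlap, and Slc6a9 at 2.88 lies furthest from 0.

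Slc6a9 encodes GlyT1, which takes up glycine together with sodium and chloride. Its signal was 0.91 and 0.56 with vehicle and 2.78 and 4.45 with AP. The groups were far apart, and the second AP-treated mouse was above the first. The means were 0.74 ± 0.25 and 3.62 ± 1.18 (SD, n = 2 each), a log2 fold change of 2.88 with a standard error of 0.60, which is 7.36-fold. The unadjusted limma p was 0.0061 and the adjusted p was 0.80. Among the 12790 named genes, Slc6a9 was number 9 in order of log2 fold change and number 59 in order of p. A second Slc6a9 probe had signals of 0.81, 0.31, 2.52 and 4.17, which gave a log2 fold change of 2.79. When each mouse was left out in turn, the value ranged from 2.05 to 3.71. The other measured carrier of the family, the taurine carrier Slc6a6, had a log2 fold change of -0.35 (standard error 0.32) with overlapping groups.

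In the Slc1 family, the carrier of small neutral amino acids and a glutamate carrier were higher in AP-treated mice, and the other measured members overlapped between groups. Slc1a4 (ASCT1), which exchanges alanine, serine, cysteine and threonine, had signals of 3.90 and 3.68 in vehicle-treated mice and of 5.17 and 4.47 in AP-treated mice. Both AP-treated mice were above both controls, the first more than the second, with a log2 fold change of 1.03 (standard error 0.31), which is 2.04-fold, and a value of 0.68 without the first AP-treated mouse. Slc1a3 (GLAST), a sodium-driven carrier of glutamate and aspartate, had signals of 2.51 and 2.21 against 3.58 and 2.89. Its order of mice was that of Slc1a4, and its 1.83-fold difference, 0.87 on the log2 scale (standard error 0.32), was 0.53 without the first AP-treated mouse. Slc1a1 (EAAC1), which takes up glutamate and cysteine, had signals of 1.30, -1.46, -1.84 and -0.61 in the same order of mice. Only the first vehicle-treated mouse was high, so that the log2 fold change of -1.14 (standard error 1.02) was 0.24 without it. Slc1a5 (ASCT2), the main glutamine exchanger of many cells, had signals of 5.56 and 6.19 against 5.60 and 6.04 and a log2 fold change of -0.06 (standard error 0.32).

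The promoters of the transporters were searched for the 8 letters TGATGNAA on both strands (TTNCATCA on the other strand), the core of the CEBP-ATF response element that dimers of ATF4 and C/EBP proteins bind. RefSeq promoter windows of assembly GRCm38.p6, from 250 bases before to 50 bases after an annotated start, were at hand for 26 of the 35 genes. The letters were in the windows of 3 of these 26 genes (11.5%), Slc1a4, Slc7a7 and Slc7a11, and in those of 4.51% of 27025 genes on the whole. By window, 4 of 39 (10.3%) held them, against 3.97% of 32851. Among these 4, overlapping Slc7a7 windows of different starts share a match, which is thus counted more than once. The stretches that hold the matches are shown 5′ to 3′ in the direction of the gene, with each match in capitals, since they let the reader see how the 3 genes differ in number and place of matches.
Slc1a4, chr11:20332689-20332757, minus strand: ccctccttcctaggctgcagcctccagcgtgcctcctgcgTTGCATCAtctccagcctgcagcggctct
Slc7a11, chr3:50443613-50443719, minus strand: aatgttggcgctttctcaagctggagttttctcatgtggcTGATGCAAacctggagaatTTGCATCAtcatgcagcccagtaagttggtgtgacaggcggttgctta
Slc7a7, chr14:54417920-54418125, minus strand: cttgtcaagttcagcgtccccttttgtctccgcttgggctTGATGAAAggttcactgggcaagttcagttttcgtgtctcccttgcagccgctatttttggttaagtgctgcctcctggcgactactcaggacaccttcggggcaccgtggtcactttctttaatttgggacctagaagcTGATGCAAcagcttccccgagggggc

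The Slc1a4 match began 4 bases before the annotated start and ran across it, and the 2 Slc7a11 matches began 66 and 47 bases before the start and lay on opposite strands. The 2 Slc7a7 matches shown began 141 and 1 bases before an annotated start, and the latter began 243 bases before another start of the gene. Of these 3 genes, Slc1a4 was higher in both AP-treated mice, Slc7a7 overlapped between groups, and the Slc7a11 probe was not well above background on any array. The windows of Slc6a9, Slc3a2, Slc7a8, Slc43a1, Slc1a3, Slc38a7 and Slc36a1, also higher in both AP-treated mice, were searched too and held no match. This says only that these letters are not in these windows. The cAMP response element TGACGTCA was in the window of 1 transporter, Slc38a6 (2.56% of windows, against 1.79% of all), whose log2 fold change was 0.00. A match is a description of sequence and not a site shown to be bound.

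The heavy chain Slc3a2 and its light chain Slc7a8 were higher in both AP-treated mice, Slc7a6 was lower in both, and the light chains Slc7a5, Slc7a7 and Slc7a10 overlapped between groups. Slc3a2 encodes 4F2hc, the heavy chain that brings LAT1, LAT2, y+LAT1, y+LAT2, Asc-1 and xCT to the cell surface. Its signal was 3.92 and 3.61 in vehicle-treated mice and 4.52 and 5.18 in AP-treated mice. Neither AP-treated mouse overlapped with the controls, and the second was the higher. The log2 fold change of 1.08 (standard error 0.31) is 2.12-fold, with an unadjusted limma p of 0.021 and an adjusted p of 0.80. Leaving out each mouse in turn gave 0.75 to 1.41. The other heavy chain of the set, Slc3a1 (rBAT), and its light chain partner Slc7a9 were not above background on any array.

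Slc7a8 (LAT2) exchanges neutral amino acids across the membrane when joined to 4F2hc. Its signal was -2.62 and -1.78 in vehicle-treated mice and -0.15 and -1.09 in AP-treated mice, a dim probe with groups that did not overlap and the first AP-treated mouse on top. The mean was 2.99-fold higher, a log2 fold change of 1.58 (standard error 0.46), which was 0.73 when the background was corrected by normexp. Slc7a6 (y+LAT2), which exchanges cationic for neutral amino acids, lay the other way, with -0.34 and -0.34 in vehicle-treated mice and -1.50 and -0.72 in AP-treated mice. The groups did not overlap. Its log2 fold change of -0.77 (standard error 0.33) had an unadjusted limma p of 0.068, and it was -0.35 with normexp and -0.38 without the first AP-treated mouse.

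Slc7a5 encodes LAT1, the light chain for large neutral amino acids such as leucine, and its 2 probes differed in direction. The brighter probe had signals of -1.56, -1.06, -1.54 and -1.52 and a log2 fold change of -0.22 (standard error 0.26). The dimmer probe, not well above background in the first vehicle-treated mouse, had -4.28 and -3.32 in vehicle-treated mice and -3.56 and -1.23 in AP-treated mice, a value of 1.40 (standard error 0.86). Only the second AP-treated mouse was high on the dimmer probe, and the groups overlapped on both. Such disagreement was also seen for the aromatic amino acid carrier Slc16a10 (0.13 and -0.29), and, near 0, for Slc1a5 (-0.06 and 0.06) and Slc38a9 (-0.08 and 0.07).

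**Figure D2:**
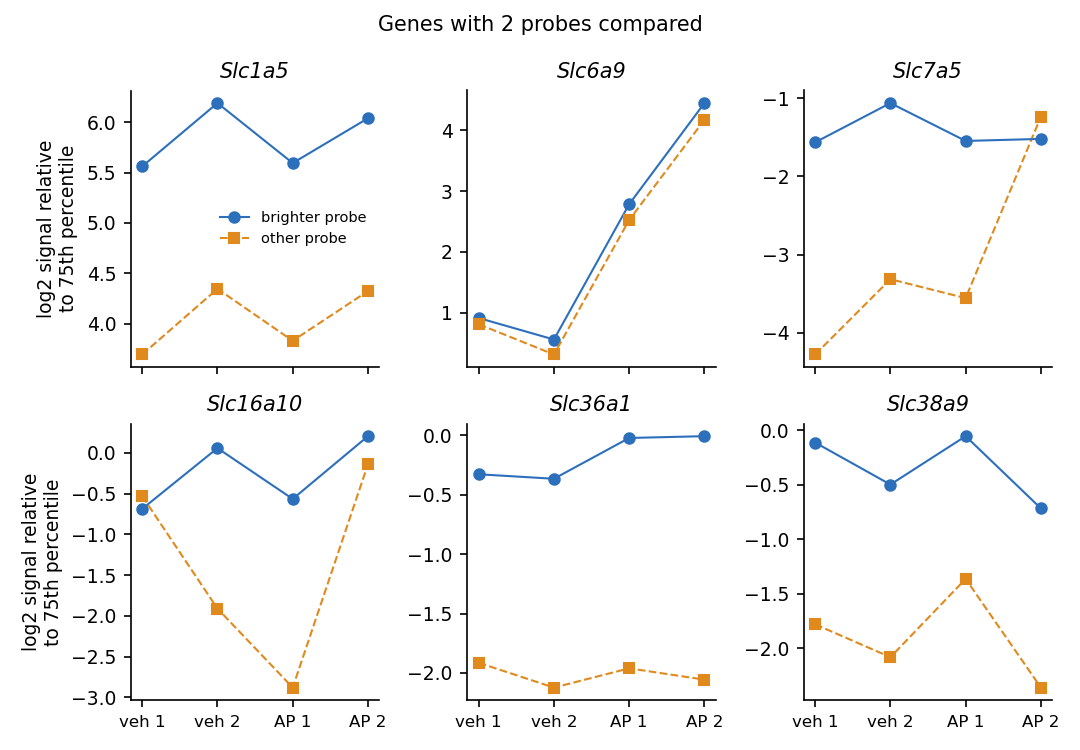
Log2 signal relative to the 75th percentile (y axis, own scale in each panel) in each of the 4 mice for the 6 transporters with 2 probes compared. The Slc6a9 probes follow each other across the mice, while the dimmer Slc7a5 probe is high only in the second AP-treated mouse.

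The remaining light chains overlapped between groups. Slc7a7 (y+LAT1), a relative of Slc7a6 with the same kind of exchange, had signals of -0.77, 0.65, 0.38 and 0.18 and a log2 fold change of 0.34 (standard error 0.51). Its order of mice was that of the summed skeletal muscle markers and of the summed lymphocyte and MHC class II markers, which held for 1 of the 24 transporters. The share of all named genes with this order was not taken, so nothing is concluded from the match. The muscle sum, in linear units of the 75th percentile and over all 15 markers, was 102.2 and 1260 in vehicle-treated mice and 800.9 and 462.6 in AP-treated mice. All 15 were highest in the second vehicle-treated mouse. The lymphocyte and MHC class II sum, with 8 of 12 markers measured, was 51.2 and 169.2 with vehicle and 61.0 and 57.8 with AP. The part of these cells in the Slc7a7 values was not tested. In such bulk tissue, fewer cells of a type and less RNA per cell cannot be told apart. Slc7a10 (Asc-1), a carrier of small neutral amino acids known as a surface marker of white adipocytes, had signals of -0.17, 0.20, 0.06 and -0.48 and a log2 fold change of -0.22 (standard error 0.29). The summed white adipose markers, 5 of 9 measured with Hoxc8, Hoxc9, Hoxc10 and Trim14 not measured, were 54.2, 88.9, 43.7 and 43.4 in the same order of mice, with leptin (Lep) at a log2 fold change of -1.38 (standard error 0.51), and their part in the Slc7a10 values was not tested.

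Among the carriers of cationic amino acids, Slc7a1 (CAT1), the main arginine and lysine carrier of many cells, was high in a single mouse. Its signals were -0.17 and 0.91 in vehicle-treated mice and 0.41 and 3.15 in AP-treated mice. The log2 fold change of 1.41 (standard error 0.99) rested on the second AP-treated mouse and was 0.05 without it and 2.78 without the first. Slc7a4, related in sequence to these carriers, was lower in both AP-treated mice, with -1.37 and -0.77 in vehicle-treated mice and -2.40 and -1.80 in AP-treated mice. Its mean was 2.04-fold lower, a log2 fold change of -1.03 (standard error 0.34), with an unadjusted limma p of 0.034 and an adjusted p of 0.80, and it was -0.46 with normexp. The other Slc7a4 probe was not above background, and neither were those of Slc7a2 (CAT2) and Slc7a3 (CAT3).

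The Slc43 carriers move large neutral amino acids without a heavy chain. Slc43a1 (LAT3), selective for branched-chain amino acids and phenylalanine, had signals of -1.34 and -1.25 in vehicle-treated mice and 0.87 and -0.59 in AP-treated mice. The groups did not overlap, and the 2.71-fold difference, 1.44 on the log2 scale (standard error 0.52), was 0.71 without the first AP-treated mouse. With normexp it was 0.81. Slc43a2 (LAT4) had signals of 0.88, 1.87, 2.28 and 0.90, with overlapping groups and a log2 fold change of 0.21 (standard error 0.60).

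**Figure D3:**
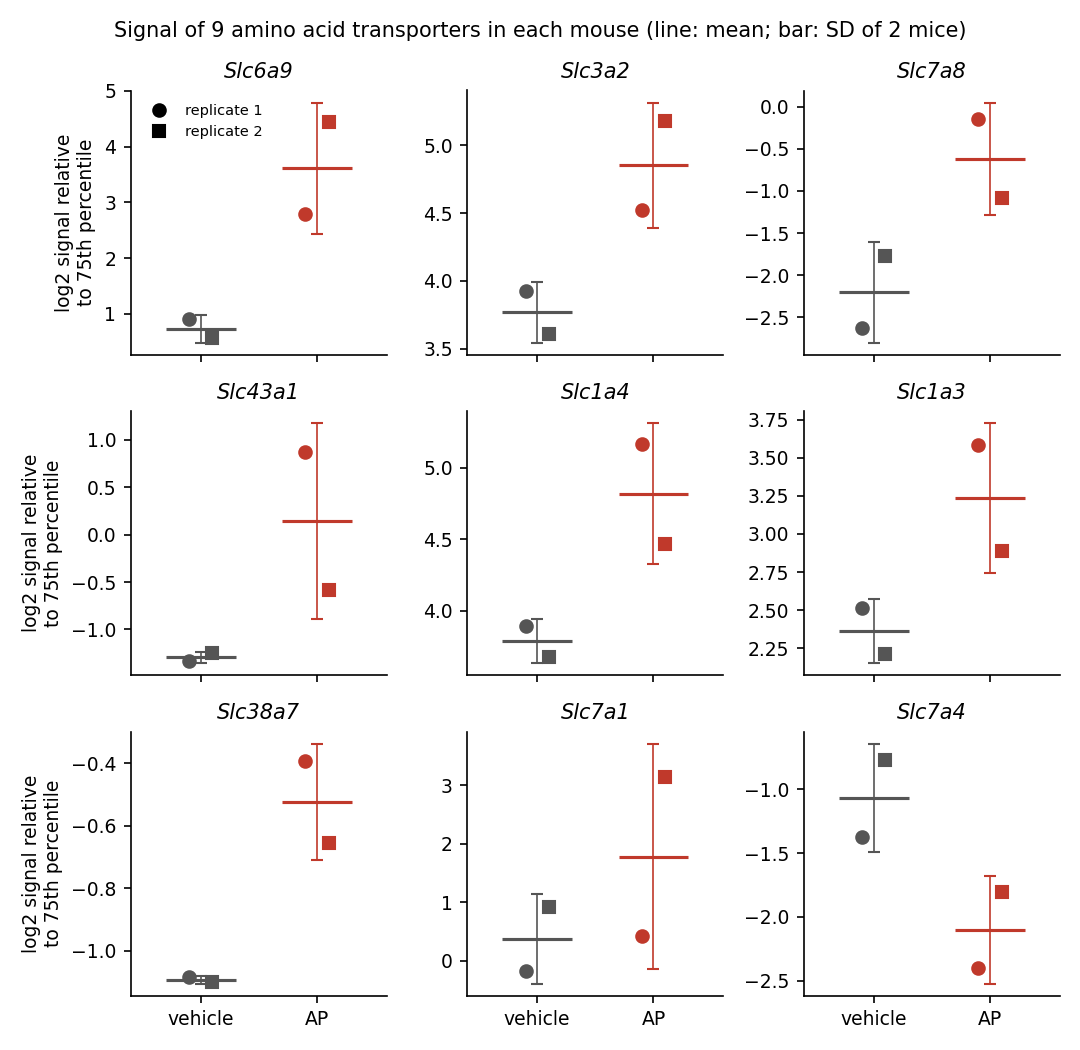
Log2 signal relative to the 75th percentile (y axis, own scale in each panel) of 9 transporters in the 2 vehicle-treated and 2 AP-treated mice, with the mean as a line and the SD as a bar. The AP points lie above the vehicle points for Slc6a9, Slc3a2, Slc7a8, Slc43a1, Slc1a4, Slc1a3 and Slc38a7 and below them for Slc7a4, while Slc7a1 is high in 1 AP-treated mouse.

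Of the carriers at the lysosome, Slc38a7 and Slc36a1 were higher in both AP-treated mice, by less than 2-fold. Slc38a7 (SNAT7), which exports glutamine from the lysosome, had signals of -1.08 and -1.10 in vehicle-treated mice and -0.39 and -0.65 in AP-treated mice. The vehicle-treated mice lay close together and both AP-treated mice were above them, with a log2 fold change of 0.57 (standard error 0.22) and an unadjusted limma p of 0.051. Slc36a1 (PAT1), a proton-coupled exporter of small neutral amino acids from the lysosome, had signals of -0.33 and -0.37 against -0.02 and -0.01. Its 2 groups were tight and apart, with a log2 fold change of 0.33 (standard error 0.20), but a second probe gave 0.01. Slc38a9, the arginine sensor of the lysosomal membrane, had signals of -0.11, -0.50, -0.05 and -0.72 with overlapping groups. The related carrier Slc36a4 (PAT4) had a log2 fold change of 0.08 (standard error 0.31).

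At the cell surface, the sodium-coupled carrier of neutral amino acids Slc38a2 (SNAT2) had signals of 3.79 and 2.60 in vehicle-treated mice and 2.76 and 4.09 in AP-treated mice. Its groups overlapped, with a log2 fold change of 0.23 (standard error 0.62). Slc38a10 had -0.42 (standard error 0.41), and Slc38a6 had 0.00 (standard error 0.32). By family, the median log2 fold change of the measured genes was 0.41 for 4 Slc1 genes, -0.22 for 7 Slc7 genes, 0.21 for 2 Slc36 genes, 0.00 for 5 Slc38 genes and 0.82 for 2 Slc43 genes.

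For the 11 transporters that were not compared, the arrays give only a bound in at least 1 mouse of each group. No probe of Slc1a2 (GLT-1), Slc3a1, Slc6a15, Slc6a17, Slc7a2, Slc7a3, Slc7a9 or Slc7a11 (xCT, the cystine and glutamate exchanger) was well above background on any array. Slc38a1 (SNAT1), a carrier of glutamine, passed in the second vehicle-treated mouse only, with signals of -4.16, -1.03, -4.22 and -3.48. In that mouse the 8 measured lymphocyte and MHC class II markers were also highest, with sums of 51.2, 169.2, 61.0 and 57.8 in the 4 mice. All 15 skeletal muscle markers, 7 of the 10 measured macrophage markers and the white adipose sum were highest there too. The erythroid sum and the neuron and Schwann cell sum were highest in the first vehicle-treated mouse. The part of any of these cells in the Slc38a1 values was not tested. Slc38a3 (SNAT3) also passed in the second vehicle-treated mouse only (-3.33, -1.98, -3.48 and -3.26), and Slc38a4 (SNAT4) in the first AP-treated mouse only (-5.90, -4.14, -3.09 and -3.91).

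The 2 AP-treated mice differed in which transporters were highest. Of the 8 transporters above both controls, 5 were higher in the first AP-treated mouse, namely Slc7a8, Slc43a1, Slc1a4, Slc1a3 and Slc38a7, and 3 in the second, namely Slc6a9, Slc3a2 and Slc36a1. Of 15 ISR genes taken as a reference, 12 were highest in the second AP-treated mouse. The same shares of all named genes were not taken, so nothing is concluded from these counts by mouse. Trib3, a pseudokinase that ATF4 induces, had signals of 2.78 and 2.33 in vehicle-treated mice and 6.26 and 8.01 in AP-treated mice, with a log2 fold change of 4.58 (standard error 0.63). Atf4 itself had signals of 7.49 and 6.12 against 7.26 and 8.23, so its groups overlapped, with a log2 fold change of 0.94 (standard error 0.59) that ranged from 0.26 (without the second vehicle-treated mouse) to 1.62 (without the first) when single mice were left out, and was 0.45 without the second AP-treated mouse and 1.43 without the first. Ddit3, the transcription factor CHOP, had 1.61 (standard error 0.45), or 1.01 without the second AP-treated mouse. Asns, which makes asparagine, had 1.17 (standard error 0.43), or 0.72 without the same mouse. In all, 14 of the 15 reference genes were higher in AP-treated mice, with a median log2 fold change of 1.01, and 7 had an unadjusted limma p under 0.05 (Ddit3, Trib3, Asns, Chac1, Nupr1, Sesn2 and Vldlr). These reference genes were chosen with earlier results of these data known.

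**Figure D4:**
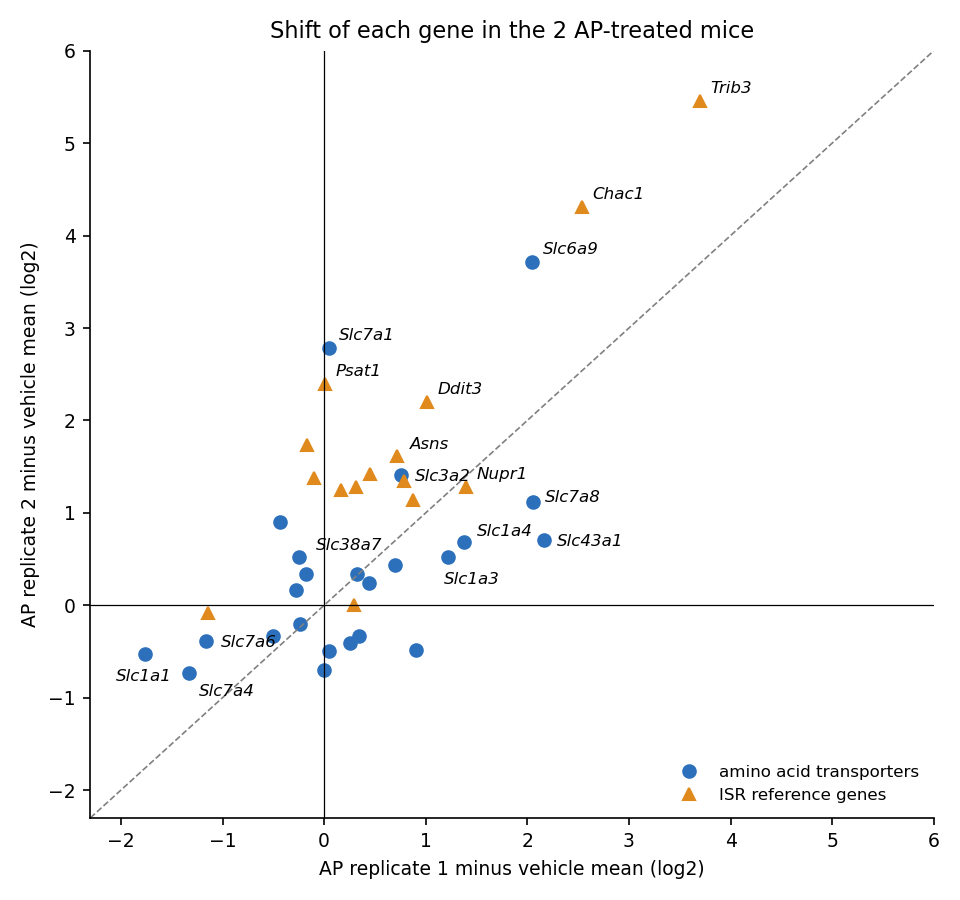
Distance of the first (x axis) and the second (y axis) AP-treated mouse from the vehicle mean, in log2 units, for the 24 transporters and 15 ISR reference genes, with equal distance as a dashed line. Slc6a9 and Slc7a1 lie on the side of the second mouse with most of the reference genes, while Slc7a8, Slc43a1, Slc1a4 and Slc1a3 lie on the side of the first.

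Other genes of amino acid transport and sensing showed no common direction. Of 29 further amino acid carriers 12 were measured, 6 higher and 6 lower in AP-treated mice with a median log2 fold change of -0.01, and none had an unadjusted limma p under 0.05. They include Slc36a2 (PAT2), a surface marker of brown adipocytes, at 6.94 and 6.32 in vehicle-treated mice and 7.16 and 6.72 in AP-treated mice, and the lysosomal cystine exporter Ctns, at 1.09 and 1.11 against 1.82 and 1.24. Of 40 listed symbols of genes that sense amino acids at the lysosome or act with mTORC1, 38 were measured, 19 higher and 19 lower with a median of 0.03. Rragd did not pass the filter, and the array had no probe under the symbol Samtor. The leucine sensor Sesn2 (1.07, standard error 0.27) and Mios (0.63, standard error 0.22), a subunit of the GATOR2 complex, were higher at an unadjusted limma p under 0.05. Castor2 (-0.79, standard error 0.21), a relative of the arginine sensor Castor1, and Depdc5 (-0.55, standard error 0.20), a subunit of the GATOR1 complex, were lower by the same measure. All 4 had groups that did not overlap and an adjusted limma p of 0.80. Of the 38 sensing genes, 8 were above both controls in both AP-treated mice and 6 were below, beside 20.1% and 17.3% of all named genes, and the 2 higher and 2 lower genes at an unadjusted p under 0.05 stand beside 3.78% and 2.26%. Of 14 transporter regulators and amino acid enzymes 11 were measured, with a median log2 fold change of 0.02 and 0 at an unadjusted limma p under 0.05.

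Markers of further cell types were summed in the same way. Macrophage markers were measured for 10 of 12, without Cd68 and Cd163. Their sum was 40.9 and 56.6 in vehicle-treated mice and 34.9 and 31.7 in AP-treated mice. Of the 10, 9 had a log2 fold change below 0, but only the integrin Itgam was below both controls in both AP-treated mice. Itgam had signals of 4.21 and 3.82 against 2.85 and 3.42, with a log2 fold change of -0.88 (standard error 0.30). The others overlapped between groups, so the sum was lower in both AP-treated mice while most of its markers were not. The neuron and Schwann cell markers (7 of 8) were at 38.6 and 27.8 against 21.3 and 22.5, with the synaptic gene Snap25 at -0.90 (standard error 0.30). Of these 7, 3 had a log2 fold change above 0 and 4 below, and 2 were below both controls in both AP-treated mice. Slc7a4 and Slc7a6 were lower in the same mice, as were the white adipose sum given above and 17.3% of all named genes. The part of any of these cells in the Slc7a4 and Slc7a6 values was not tested. The erythroid sum (7 of 8 markers) ranged from 1306 to 2460 over the 4 mice, and the groups overlapped for it and for the endothelial sum (8 of 8).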

How the data were processed

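Total RNA of BAT from each mouse was labeled with Cy3 and hybridized to a SurePrint G3 Mouse array of 62976 spots. The authors extracted the scans with Agilent Feature Extraction 10.7.1.1 and deposited the intensity of each spot, background-subtracted, linear and not normalized across arrays. A second table that the authors deposited holds processed log2 values, whose normalization and centring are not given in the sources used here. Its differences between arrays correlated with those of the log2 intensities (Pearson's r, 0.9986 or more) over 29062 probes, and it was used as an alternative.

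The processed signals were taken to log2 and scaled to the array's 75th percentile, without control spots and outlier-flagged spots, and spots of a probe were averaged. A probe needed to be well above background throughout 1 group or the other, which kept 24970 of 55681. The comparison used limma 3.58.1 (lmFit, eBayes) under R 4.3.3, with Benjamini-Hochberg adjustment over all these probes and a threshold of 0.05, and the fit was tested on simulated data. Accessions were named through RefSeq GRCm38.p6 (26582 probes), used for names and promoters only, since the array design names another build. The brightest probe that passed stood for each gene. Every transporter measured is named, with values in each mouse for those at an unadjusted p under 0.05, at a log2 fold change of at least 1 in size, or joined to Slc3a2, and for some others in addition. Of the other lists, genes at an unadjusted p under 0.05 are named, with Trib3, Ddit3, Atf4 and Asns, and Slc36a2 and Ctns were added after their values were seen. The members, lists and tests were chosen with earlier results of these data known. The labels do not say that mice were littermates or pairs, so p values measure only the spread between these mice, and no block was used. Alternatives were normexp background correction (offset 50) on the median spot signal, quantile normalization, scaling to the array median, no filter and a stricter filter, a variance trend, the authors' log2 values, a replicate block, omission of each mouse in turn, the methods' t-test and a mean over the probes of each gene. The number of arrays limits the precision.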

Additional observations from a re-analysis of the deposited data

How the results depend on the processing

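In none of 14 alternatives did a probe pass the adjusted threshold (limma or the methods' t-test, Benjamini-Hochberg), with 1515 probes at an unadjusted limma p under 0.05 and 1478 by the methods' t-test. Slc7a1 and the 10 transporters whose groups did not overlap kept their direction in all 14. Many of these settings could not have changed it. Where groups do not overlap, leaving out 1 mouse cannot turn the sign. The variance trend, the replicate block, the methods' t-test and the changes of filter leave the log2 fold change of a probe as it is. The count of transporters at an unadjusted p under 0.05, 7 as reported, was 2 by the methods' t-test and 3 to 7 without 1 mouse (3 without the first vehicle-treated or the first AP-treated mouse). The count with groups that do not overlap, 10 as reported, was 14 to 20 without 1 mouse, where fewer mice are compared. Leaving out a mouse cannot make separate groups overlap, so this count can only stay or rise. The share of all named genes was not taken without 1 mouse, so the 14 to 20 have no background beside them and nothing is concluded from them. The median log2 fold change of the transporters, 0.17 as reported, was 0.27 with the median of each array, 0.012 with the authors' log2 values, which move the median of all probes to -0.17, and 0.12 to 0.31 without 1 mouse. Its distance from the median of all probes was 0.19 as reported. For the same 24 transporters it was 0.079 when the filter was lifted from the other probes only. With no filter on either, the median was 0.15 over all 35 transporters, beside 0.094 over all probes. The distance was 0.080 to 0.37 without 1 mouse (0.080 without the first and 0.37 without the second vehicle-treated mouse, 0.28 without the first AP-treated mouse).

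Some single log2 fold changes changed sign. Those under another scaling follow from its shift of nearly all probes one way. With the median of each array, Slc1a5 was at 0.033 and Slc38a9 at 0.012. With the authors' log2 values, Slc16a10 was at -0.027, Slc36a4 at -0.083 and Slc38a6 at -0.16. With the mean of all probes, Slc7a5 was at 0.59 and Slc16a10 at -0.078. Without 1 mouse, Slc1a1 ranged from -2.53 to 0.24, Slc1a5 from -0.37 to 0.26, Slc6a6 from -0.70 to 0.0031, Slc7a5 from -0.47 to 0.031, Slc7a7 from -0.37 to 1.05, Slc7a10 from -0.49 to 0.046, Slc16a10 from -0.25 to 0.52, Slc36a4 from -0.18 to 0.34, Slc38a2 from -0.43 to 0.90, Slc38a6 from -0.34 to 0.34, Slc38a9 from -0.41 to 0.25, Slc38a10 from -0.96 to 0.12 and Slc43a2 from -0.48 to 0.90. Why single mice or probes stood apart was not tested.

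Same-numbered mice deviated from their group means with a correlation of -0.13 over 24970 probes, so the replicate numbers were not taken to pair them. Under the replicate block, 0 probes had an adjusted p under 0.05 and 8 transporters had an unadjusted p under 0.05. The crossed pairing, chosen after seeing the data, gave 0 adjusted and 1567 unadjusted probes. Slide and scan as a block were not run, since there was 1 of each. Where a probe was not well above background, a signal is only a bound, and with a group reduced to 1 mouse that mouse is assumed to vary like the others.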
